A study of Rattus norvegicus with 10 samples.

Results

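Messenger RNA of 8 genes of arginine metabolism (Ass1, Asl, Arg1, Arg2, Otc, Oat, Odc1 and Nos2) was followed in rat milk whey over lactation. Every non-control probe whose gene name in the files is one of these symbols was taken, which gave 10 of the 41012 probes on each array and 8 of its 35469 gene names. The group was chosen by the measured signal of Ass1, which falls strongly over lactation in these same arrays. Its values are therefore a description with no test, and the question put to the other 7 genes, which hold 9 of the probes, is whether the neighbouring steps of arginine making and use change as well.

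The whey came from 3 F344/N rats, an inbred strain, which were 14 weeks old and 14 days pregnant when obtained. Each dam was hand-milked after an oxytocin injection on d 2 (colostrum), d 9 and d 16 postpartum. Milk was spun free of fat, cells and casein and the whey was filtered, and each dam and day had an array of its own, 9 in all. Serum RNA of the same dams, labelled d 21, was mixed and put on 1 array, so the serum values have no replicate. All groups share the strain and the same 3 dams, and no treatment set the whey days apart. Handling differed between the fluids. Milking followed separation from the litter and oxytocin under light sevoflurane, while blood was taken at sacrifice under deep sevoflurane. The paper found little or no ribosomal RNA in either fluid. It proposes that whey RNA does not stem from cells in the milk and that the transcripts may come from milk exosomes. Which mixture of cells released the RNA is unknown. Fewer cells of a type and less RNA released per cell therefore cannot be told apart.

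Arginine is made from citrulline in 2 steps. Ass1 (argininosuccinate synthase) joins citrulline to aspartate and is usually regarded as the limiting enzyme, and Asl (argininosuccinate lyase) splits the product into arginine and fumarate. Arginases cut arginine into urea and ornithine, and ornithine can go to polyamines through Odc1, toward proline and glutamate through Oat, or back to citrulline through Otc. Nos2 uses arginine to make nitric oxide. The lactating mammary gland is known to take up more arginine than it secretes in milk protein and to turn part of the rest into proline.

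The sequences of the 4 probes on which the making of arginine and its cleavage by arginase rest are shown because each of these genes was read by a single probe. They are 60 bases long and are written 5′ to 3′ as the files give them, with no part marked. On rat genome build rn4, as annotated in the files, the Ass1 probe lay at chr3:10620727-10622079 and the Asl probe at chr12:27712767-27713038, both on the plus strand. The Arg1 probe lay at chr1:21011150-21011209 and the Arg2 probe at chr6:101927878-101927937, also on the plus strand. The spans of the Ass1 and Asl probes, 1353 and 272 bases, were longer than the probes, and exon or other transcript annotation was not used here.
Ass1: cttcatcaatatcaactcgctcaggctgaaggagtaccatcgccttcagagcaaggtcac
Asl: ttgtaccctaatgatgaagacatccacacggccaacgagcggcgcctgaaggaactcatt
Arg1: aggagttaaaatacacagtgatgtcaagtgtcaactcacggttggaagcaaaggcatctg
Arg2: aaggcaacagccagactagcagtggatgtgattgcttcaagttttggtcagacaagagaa

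Levels are given as log2 of the quantile normalized signal, in which 1 unit is a doubling, and they were not compared between probes. The paper states that each array received the same amount of total RNA. It also reports a much higher RNA concentration in colostrum whey than in the whey of the later days. A level is therefore relative to the other RNA on its array, and so is each rise or fall given below. Changes in the amount per volume of whey were not tested, and their direction can differ. Whey arrays held 10703 to 18018 probes well above background and the serum array 6174, and the upper-quartile signal before normalization ran from 12.5 to 83.4 on the whey arrays and was 4.09 in serum. Days were compared over the 16849 probes detected in whey, of which the 8 probes of Ass1, Asl, Arg1, Arg2, Oat and Odc1 were part. All 9 probes of the mammary epithelial marker genes were well above background on every whey array, and none of 7 liver marker genes was on any. Relative to d 2, limma called 4 of those 9 probes lower and 0 higher by d 9, or 44.4% against 17.7% of all probes. For d 16 the calls were 3 lower and 3 higher, or 66.7% against 28.5% (adjusted p under 0.05). The 3 d 16 arrays and the serum array shared a slide that was scanned later than the others, so day and slide cannot be told apart in any comparison with d 16.

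**Figure D1:**
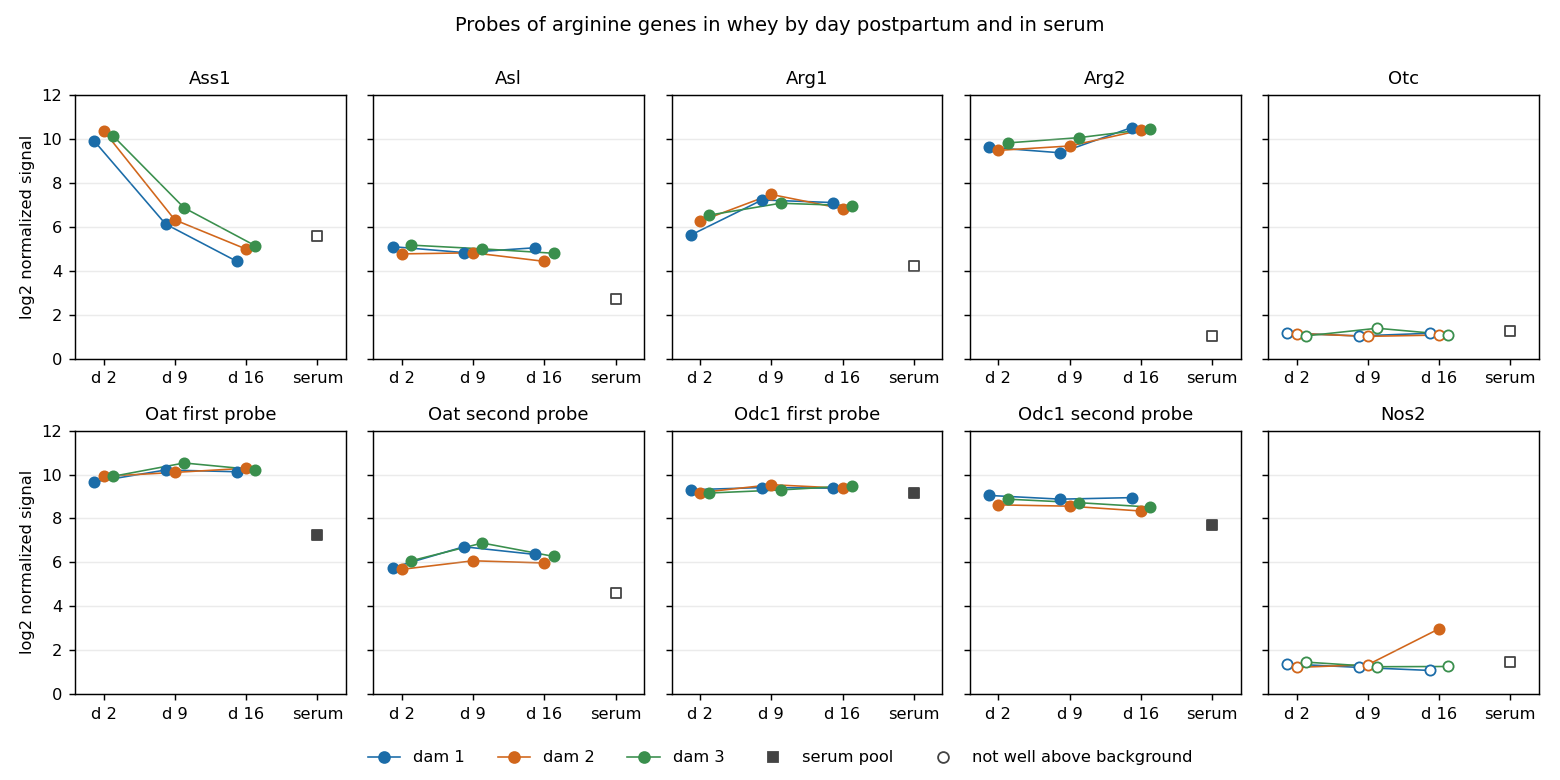
Log2 normalized signal (vertical axis) of each of the 10 probes in whey on d 2, d 9 and d 16, with 1 coloured line per dam, and in the serum pool (square); open symbols were not well above background. Ass1 drops in all 3 dams at each step, Arg1 and Arg2 end above their d 2 values, and Otc stays near 1 on every array.

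Ass1 was high in colostrum whey and lost most of its signal by d 9. Its log2 signals were 9.91, 10.39 and 10.16 on d 2 in dams 1 to 3. They were 6.13, 6.32 and 6.87 on d 9, and 4.43, 4.99 and 5.14 on d 16. No value of a day reached into those of another, and every array was well above background, so even the lowest whey level was measured. By dam, the signal was 13.8, 16.8 and 9.79 times as high on d 2 as on d 9, and 3.23, 2.51 and 3.31 times as high on d 9 as on d 16. Over the whole interval the d 2 signal was 44.6, 42.1 and 32.4 times that of d 16. The mean log2 change from d 2 was -3.72 by d 9 and -5.30 by d 16, and the last step, d 9 to d 16, was -1.58. Ranked by size among 16849 probes, these were falls number 22, 9 and 170. Within the slide that held the d 2 array of dam 3 and all d 9 arrays, the change to d 9 was also -3.72. Among the epithelial markers, the keratins Krt19, Krt8 and Krt18 (its first probe) were also lower than on d 2, with log2 changes of -2.75, -1.31 and -0.90 by d 9 and -2.29, -1.16 and -0.72 by d 16. Unlike Ass1 they did not fall further after d 9, at 0.45, 0.15 and 0.18. The second Krt18 probe changed from d 2 by -0.72 and -0.36, and only the first of these was called. Elf5 (-0.25 and -0.28) and Epcam (-0.47 and 0.43) were not called on either day. The milk protein genes Csn2, Lalba and Wap rose by d 16, by 1.05, 1.02 and 0.70. The part of the source cells in the Ass1 values was not tested.

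Asl, the step that follows Ass1, did not share that fall. Its log2 signals were 5.10, 4.77 and 5.17 on d 2, 4.83, 4.82 and 5.00 on d 9, and 5.05, 4.43 and 4.80 on d 16. The days overlapped throughout, and the lowest and highest of the 9 values lay within 1 log2 unit of each other. The log2 change by d 9 was -0.12 with a 95% confidence interval of -0.56 to 0.31 (limma adjusted p = 0.667). By d 16 it was -0.25, with an interval of -0.68 to 0.18 (limma adjusted p = 0.344). The lower end of that interval is far from the -5.30 of Ass1, although the Asl probe was dim and the test does not show that Asl stayed constant.

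Of the arginases, Arg1 rose between d 2 and d 9 and Arg2 between d 2 and d 16. Arg1, the cytosolic arginase best known from liver, had log2 signals of 5.63, 6.26 and 6.54 on d 2, 7.23, 7.48 and 7.08 on d 9, and 7.11, 6.83 and 6.97 on d 16. Each d 9 and d 16 value was above each d 2 value, and the d 2 values were the most spread. The log2 change from d 2 to d 9 was 1.12 (SE 0.24, n = 3 dams a day), a ratio of 2.18, with a limma adjusted p of 0.0181. By d 16 it was 0.83, a ratio of 1.78 (limma adjusted p = 0.034). Between d 9 and d 16 the difference was -0.29, and the values overlapped (limma adjusted p = 0.533).

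Both Arg1 calls rested on some of the settings. With the slide in the model, the change from d 2 to d 9 was 0.73 (limma adjusted p = 0.229). Only slide 2 held arrays of both days, and its only d 2 array was that of dam 3. The change within slide 2 alone is therefore the same by design and is no separate check. This holds for each d 9 change given below with the slide in the model or within slide 2. The d 16 call did not survive a dam term in the model (limma adjusted p = 0.0561) and was lost in 5 of 9 fits that left out an array, namely those without the d 2 array of dam 1 or dam 2 or any of the 3 d 16 arrays (limma adjusted p = 0.0524 to 0.0934). The d 9 call was lost without the d 9 array of dam 2 (limma adjusted p = 0.0673). Neither call, nor that of Arg2, passed the Tukey-Kramer test that the study's methods name for other measurements (adjusted p = 0.0808, 0.127 and 0.0586).

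Arg2, the mitochondrial arginase found in many tissues outside liver, had log2 signals of 9.63, 9.49 and 9.83 on d 2, 9.38, 9.69 and 10.07 on d 9, and 10.53, 10.41 and 10.47 on d 16. The d 2 and d 9 values were interleaved, while the d 16 values were close together and above all 6 others. The change by d 9 was 0.06 (95% interval -0.37 to 0.49). By d 16 it was 0.82 (SE 0.19), a ratio of 1.76, with a limma adjusted p of 0.0154. The step after d 9 was 0.76 and did not pass (limma adjusted p = 0.0979). The d 16 call was lost without the d 2 array of dam 2 (adjusted p = 0.0536) and without the d 16 array of dam 3 (adjusted p = 0.0513, limma).

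Macrophages are a known source of arginase, and some of their marker genes rose over the same days. Of 15 probes of 9 marker genes, 7 were tested, and in both comparisons with d 2 those of C1qb and Fcer1g rose and the 2 of Cd14 fell. The first C1qa probe, well above background on 7 of 9 whey arrays, rose as well. Cd68 and the second C1qa probe were called higher too, but they were well above background on no d 2 array and entered the test only through the later days, so their direction was fixed by the filter. With these, all 7 tested probes were called by d 9 and by d 16, against 17.7% and 28.5% of all probes. The summed signal of all 15 probes was 387 to 500 on d 2, 357 to 779 on d 9 and 1220 to 1700 on d 16. Cd163, Csf1r and Msr1 were not well above background on any whey array, and Mrc1 was so on 1. The summed signal of 10 neutrophil marker probes ranged from 54.1 to 64.6 on d 2, 28.9 to 199 on d 9 and 46.2 to 426 on d 16. Of 2 tested lymphocyte markers, Cd3d rose by 1.84 on d 16. The part of these cells in the arginase results was not tested.

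**Figure D2:**
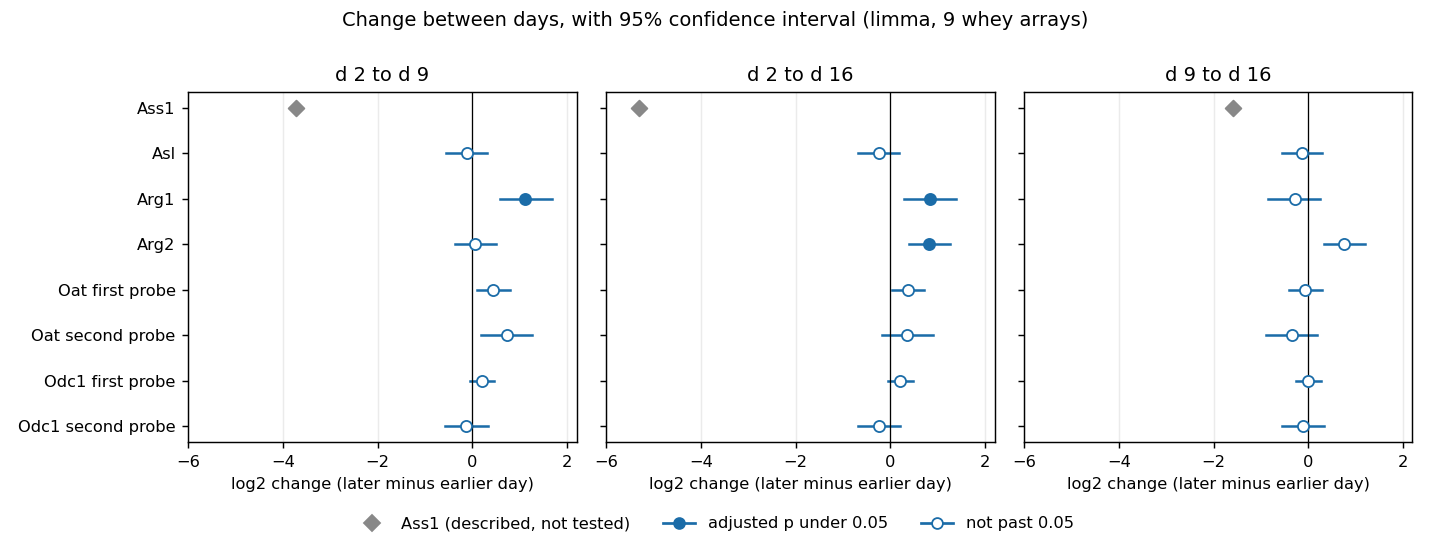
Log2 change between days (horizontal axis) for the 8 probes detected in whey, with the 95% confidence interval of the limma fit over 9 whey arrays; filled circles passed an adjusted p of 0.05 and the grey diamond is Ass1, which was not tested. Ass1 lies at -3.72, -5.30 and -1.58, while the mean changes of the other 7 probes lie between -0.35 and 1.12.

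Oat (ornithine aminotransferase), which sends ornithine toward proline and glutamate, was slightly higher after d 2 on both of its probes without passing the test. On the first probe the log2 signals were 9.67, 9.92 and 9.92 on d 2, 10.21, 10.10 and 10.53 on d 9, and 10.13, 10.29 and 10.22 on d 16. On the second they were 5.76, 5.68 and 6.07 on d 2, 6.71, 6.07 and 6.88 on d 9, and 6.36, 5.97 and 6.27 on d 16. At the 2 decimals given, the d 2 and d 9 values of the second probe meet at 6.07, and before rounding they did not overlap. The d 9 differences from d 2 were 0.44 (95% interval 0.10 to 0.79) and 0.72 (0.18 to 1.26) (limma adjusted p = 0.0746 and 0.0694). The second probe passed with the dam as a block (limma adjusted p = 0.032). The d 16 differences from d 2 were 0.38 and 0.36, with limma adjusted p-values of 0.0919 and 0.276.

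Odc1 (ornithine decarboxylase), which makes the polyamine putrescine from ornithine, was nearly level. The log2 signals of its first probe were 9.31, 9.18 and 9.16 on d 2, 9.41, 9.54 and 9.30 on d 9, and 9.38, 9.38 and 9.49 on d 16. Those of its second probe were 9.05, 8.62 and 8.88 on d 2, 8.88, 8.56 and 8.72 on d 9, and 8.95, 8.34 and 8.52 on d 16. The probes differed in direction by d 16, at 0.20 (95% interval -0.06 to 0.47) for the first and -0.25 (-0.69 to 0.20) for the second, and neither passed (limma adjusted p = 0.211 and 0.369). The same held on d 9, at 0.20 and -0.13 (limma adjusted p = 0.243 and 0.663).

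The remaining genes gave little or no signal. Otc (ornithine transcarbamylase), an enzyme of the urea cycle in liver and gut, was well above background on 0 of 9 whey arrays and not in serum, with log2 values of 1.01 to 1.38 in whey. The mean of 10 spots of Nos2, the inducible nitric oxide synthase, was well above background on 1 whey array, d 16 of dam 2, at 2.97. On the other whey arrays the Nos2 value was between 1.07 and 1.45. Neither gene entered the test, so changes in them were not measurable here.

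Counted together without Ass1, 1 of the 7 tested probes (Arg1) passed between d 2 and d 9, where 17.7% of all 16849 probes did. By d 16 it was 2 of 7 (Arg1 and Arg2) against a background of 28.5%. After d 9 it was 0 of 7 against 1.42%, and there limma gave Arg2 alone an unadjusted p under 0.05, at 0.0037. These shares are near the background, and nothing about the group as a whole is read from them. The median log2 change of the 7 was 0.20, 0.36 and -0.12 in the 3 comparisons, beside 0.11, 0.04 and -0.06 over all probes tested. All d 9 values exceeded all d 2 values for 3 of the 7 probes (background 24.1%). All d 16 values exceeded those of d 2 for 4 of 7 (background 25.9%) and those of d 9 for 1 of 7 (background 11.8%). The later day was wholly lower for 0 of 7, but no background share is given for that direction, so nothing is read from it.

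Scaling to the spike-in controls raised the median of all probes by 1.52 log2 units on d 9 and by 0.59 on d 16 relative to d 2, and between d 9 and d 16 the median fell by 0.93. On that scale the Ass1 changes were -2.31, -4.82 and -2.51, and relative to the median they were -3.83, -5.41 and -1.58. Arg1 changed by 2.67 by d 9, which was 1.15 above the median. The direction of Asl from d 2 turned to a rise of 1.32 on d 9 and 0.33 on d 16, which was -0.20 and -0.26 relative to the median. Neither arginase passed from d 2 to d 16 on that scale, at 1.47 for Arg1 and 1.31 for Arg2 (limma adjusted p = 0.262 and 0.33).

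**Figure D3:**
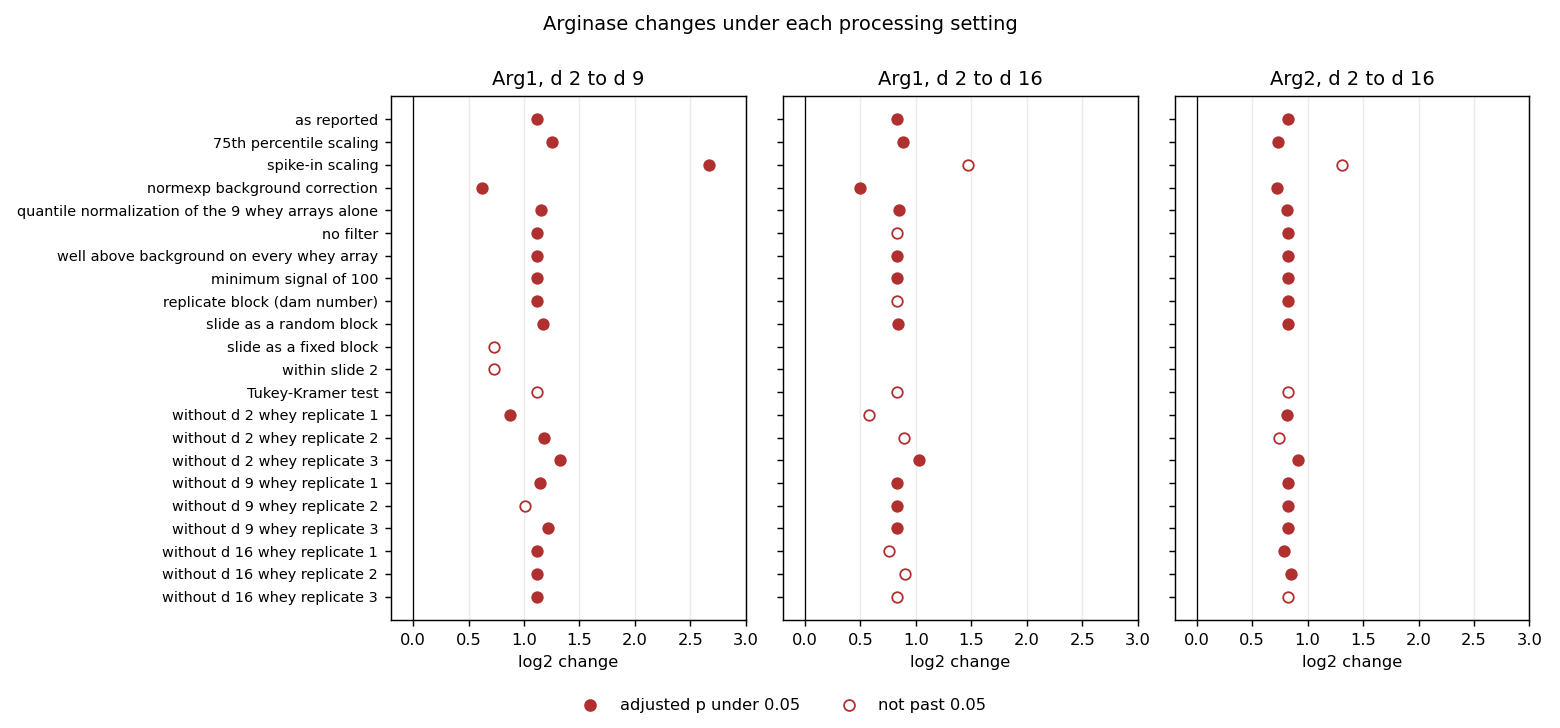
Log2 change (horizontal axis) of Arg1 by d 9 and of Arg1 and Arg2 by d 16, all from d 2, under each processing setting and with each whey array left out (rows); filled points passed an adjusted p of 0.05. All points lie to the right of 0, from 0.50 to 2.67, and the filled ones number 17 of 21, 10 of 19 and 15 of 19 alternatives.

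In serum, the second fluid of the same dams, Arg2 and the first Oat probe lay furthest below mean whey among the members, by bound or by measured value. The Arg2 value in serum was 1.01 and not well above background, so mean whey (9.94, SD 0.44, n = 9) was at least 17.1-fold higher, and d 16 whey at least 24.6-fold. Ass1 in serum was 5.58 and also not well above background. Whey was at least 19.7-fold higher on d 2 and at least 1.50-fold higher on d 9, and on d 16 its mean of 4.86 gave no bound. Such a bound sets the whey mean against the higher of the serum value and the dimmest probe well above background in serum.

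The first Oat probe was measured in both fluids, at 10.11 in mean whey (SD 0.25, n = 9) and 7.26 in serum, a ratio of 7.19. The second Oat probe was at 6.20 in mean whey (SD 0.40, n = 9) and was not well above background in serum, and its bound was at least 1.27-fold. The first Odc1 probe was nearly equal, at 9.35 (SD 0.13) and 9.17, and the second was 2.07 times as high in whey. Arg1 was at least 1.92-fold higher in mean whey, while Asl at 2.71 in serum gave no bound. By the values as measured, 4 of the 8 probes (Asl, Arg1, Arg2 and the first of Oat) were over 4-fold higher in whey, against 27.2% of 21172 probes detected in either fluid, and none was over 4-fold higher in serum, against 15.8%. These sets are unlike, since the 8 were chosen by detection in whey and the 21172 by signal in either fluid. Nos2 belongs to the larger set but not to the 8, and its mean whey and serum values differed by 0.01. In 3 of those 4 the serum value was not well above background, so the count rests partly on values with no measured serum level. With 1 serum array these are values of that pool, with no test.

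A wider list of 66 genes around arginine was set beside the 8, of which 64 had a probe and 42 were detected in whey with 53 tested probes. By d 9, 11 probes rose and 1 fell, 22.6% of those tested against the background of 17.7%. By d 16 it was 8 and 11, or 35.8% against 28.5%, and after d 9 it was 1 and 0, or 1.89% against 1.42%. Of all probes called on the array, 63.4% were higher by d 9 and 56.2% by d 16. Tested probes of the list with signal well above background on each of the 6 arrays compared numbered 43 for d 9 and 42 for d 16. Among these, 9 rose and 1 fell by d 9, and 6 rose and 9 fell by d 16. The others called include Ckm and P4ha2, which entered the test only through the later days. The median log2 change of the 53 probes was 0.00, -0.01 and -0.12 in the 3 comparisons, near that of all probes. The counts to d 9 fell to 4 without the d 2 or the d 9 array of dam 2, to 6 without the d 9 array of dam 1 or the d 16 array of dam 3, and to 7 without the d 16 array of dam 2. The counts to d 16 fell to 10 without the d 2 array of dam 2, to 12 without the d 16 array of dam 1, and to 11 without that of dam 2 or of dam 3.

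Of the polyamine genes, which include regulators of Odc1 such as Azin1, 5 of 13 tested probes rose by d 9, and 4 rose and 1 fell by d 16. That is 38.5% called in each, against 17.7% and 28.5% of all probes, and the excess over all probes was not tested. Sat1, which acetylates spermidine and spermine for export or breakdown, had log2 signals of 7.91, 8.63 and 8.51 on d 2, 9.58, 9.80 and 9.82 on d 9, and 10.89, 10.70 and 10.81 on d 16. The days did not overlap and each dam rose at both steps. The log2 change of Sat1 was 1.39 by d 9, 2.45 by d 16 and 1.07 between those days (limma adjusted p = 0.0054, 0.000384 and 0.049). The middle value passed under all 19 alternatives run on it. The step from d 9 was lost in 14 of its 19, among them the dam block (limma adjusted p = 0.0761).

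Azin1, which keeps ornithine decarboxylase active by binding its inhibitor antizyme, rose on both of its probes, by 1.05 and 0.78 on d 9 and by 1.17 and 0.92 on d 16 in log2 units. Srm (spermidine synthase) was higher by 0.60 on d 9 and by 0.41 on d 16 (limma adjusted p = 0.0164 and 0.0396), the second of which the dam block took to 0.0569. With the slide in the model the d 9 changes were 1.23 for Sat1, 0.92 for the first probe of Azin1 and 0.76 for Srm, and none passed (limma adjusted p = 0.0747, 0.128 and 0.0647). Within slide 2 alone, where d 2 has only the array of dam 3, the sizes were the same by design. Eif5a, whose protein carries a spermidine-derived residue, was the probe that fell by 0.38 on d 16 (limma adjusted p = 0.0422). It is named here after its value was seen.

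**Figure D4:**
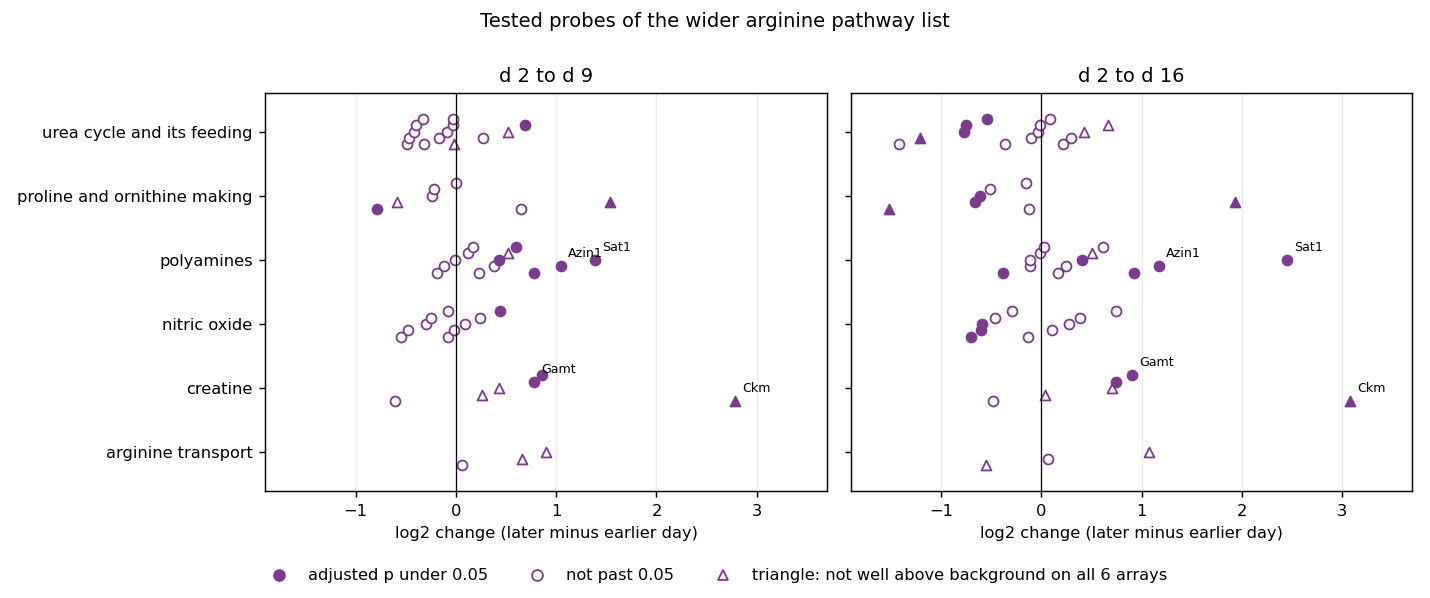
Log2 change from d 2 (horizontal axis) to d 9, left, and d 16, right, of the 53 tested probes of the wider list, in rows by role; filled symbols passed an adjusted p of 0.05, and triangles were not well above background on all 6 arrays of the comparison. Sat1 and Azin1 stand to the right in the polyamine row. Filled points to the left of 0 on d 16 number 4 in the urea cycle row, 3 each in the proline and nitric oxide rows and 1 in the polyamine row.

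In the group around the making of proline and ornithine from glutamate, each called fall was of Pycr1 or Pycr3. The only call in the other direction was that of P4ha2, described below. Of 7 tested probes 1 rose and 1 fell by d 9, and 1 rose and 3 fell by d 16, or 28.6% and 57.1% against 17.7% and 28.5% of all probes. Pycr1, which makes the last step to proline, had log2 signals of 9.47, 9.54 and 9.69 on d 2, 8.51, 8.80 and 9.02 on d 9, and 8.60, 9.16 and 8.97 on d 16. All later values were below those of d 2, and the log2 change was -0.79 on d 9 and -0.66 on d 16 (limma adjusted p = 0.0279 and 0.036). Scaled to the spike-in controls, the Pycr1 change to d 9 turned to 0.69, which was -0.83 relative to the median of all probes, and with the slide in the model it was -0.91 (limma adjusted p = 0.14, and 0.262 within slide 2). Pycr3, a related enzyme, was lower by d 16, at -0.61 (limma adjusted p = 0.0106). The probe counted as a rise, P4ha2, was not well above background on d 2 and was so on 2 arrays of each later day. It entered the test only through those days, which fixed its direction, and it gave no bound. It was named after its values were seen, as was a second Pycr1 probe among the falls, which was well above background on 2 of 3 d 2 arrays and on no d 16 array and also gave no bound.

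Around the urea cycle, 1 of 14 tested probes rose by d 9 and 4 fell by d 16, which is 7.14% and 28.6% against 17.7% and 28.5% of all probes. The rise was that of Asns (asparagine synthetase), at 0.69 on d 9 (limma adjusted p = 0.0412, and 0.408 with the slide in the model and 0.428 within slide 2, where it was 0.43). Glud1 (glutamate dehydrogenase) fell from d 2 to d 16 on 2 of its 3 probes, with the larger change at -0.77 (limma adjusted p = 0.0226). Got2, the mitochondrial aspartate aminotransferase, changed by -0.54 (limma adjusted p = 0.0211), and when scaled to the spike-in controls by 0.02, which was -0.57 relative to the median of all probes. Slc25a13, which carries aspartate out of mitochondria, went from 4.92 to 3.72 on the log2 scale and was well above background on 2 of 3 arrays on d 16 (limma adjusted p = 0.00255). It too was named after its values were seen. Cps1 and Nags, which start the urea cycle in liver, were not well above background on any whey array. Nor were any of the 7 liver marker genes.

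In the nitric oxide group 1 of 10 tested probes rose by d 9 and 3 fell by d 16, or 10% and 30% against 17.7% and 28.5% of all probes. Qdpr, which recycles a biopterin cofactor, changed by 0.44 on d 9 (limma adjusted p = 0.0294) and by 0.49 with the slide in the model (adjusted p = 0.159) or within slide 2 (0.333). Nosip, a protein that binds nitric oxide synthase, changed by -0.60 on d 16 and Ddah1, which breaks down methylated arginines that inhibit the synthases, by -0.70 on its second probe and -0.59 on its first (limma adjusted p = 0.00871, 0.0374 and 0.0399). The value of the second Ddah1 probe did not pass with the dam as a block (limma adjusted p = 0.0647). Nos1 and Nos3, the other nitric oxide synthases, were not well above background on any whey array.

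In the creatine group, which uses arginine through Gatm, 3 of 6 tested probes (50%) rose from d 2 to both later days, against 17.7% and 28.5% of all probes called. Gamt, which completes creatine, changed by 0.78 and 0.86 on its probes on d 9 and by 0.90 and 0.74 on d 16 (limma adjusted p = 0.0457, 0.039, 0.0197 and 0.0451). The d 9 change of the second of these probes was 0.34 with the slide in the model (limma adjusted p = 0.425, and 0.429 within slide 2). The other was Ckm, a creatine kinase known from muscle and named after its values were seen. It was not well above background on d 2, so it entered the test only through the later days, and was at least 3.78-fold higher on d 9 and 4.65-fold on d 16 (limma adjusted p = 0.000828 and 0.000257). Gatm itself, which takes the amidino group from arginine, was not well above background on any whey array. Among arginine transporters 0 of 3 tested probes passed on any day, and 7 of the 10 genes were not detected.

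Fits that left out 1 whey array at a time were run for 1 probe of each gene chosen by the naming rule in a comparison, which left out the second Azin1 probe among others. Sat1 and the first Azin1 probe on both later days, and Nosip and Pycr3 on d 16, passed in all 9 such fits. Scaled to the spike-in controls, the d 16 change did not pass for the first Azin1 probe (1.75), Nosip (-0.04) or Pycr3 (-0.01), with limma adjusted p = 0.15, 0.981 and 0.995. Relative to the median of all probes these were 1.16, -0.63 and -0.60. Srm on d 9 missed in 2 of the 9 fits, without the d 2 or the d 9 array of dam 2 (limma adjusted p = 0.057 and 0.0572), and on d 16 it missed in 7. The first Gamt probe on d 16 missed in 3, without the d 2 array of dam 2 or the d 16 array of dam 2 or dam 3 (limma adjusted p = 0.0592, 0.0632 and 0.0636). The second Glud1 probe and Got2 each missed in 4, without the d 2 array of dam 2 or 3 or the d 16 array of dam 1 or 2. The first Pycr1 probe missed in 5 on d 9 and in 6 on d 16, the second Ddah1 probe in 5, the second Gamt probe on d 9 and Qdpr in 7, and Asns and the later step of Sat1 in 8.

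The genes whose pattern over the 9 whey arrays was most like that of Ass1 came from outside arginine metabolism. Among 8994 genes the highest Pearson correlations with Ass1 were those of Tubb2b (0.989), Sfpq (0.985), Paics (0.985), Atxn10 (0.985) and Gorasp1 (0.984). These are descriptions over arrays that share dams and 3 days. Tubb2b, a beta tubulin, went from a mean log2 signal of 7.57 on d 2 to 6.52 and 5.97, and Paics, an enzyme of purine making, from 9.22 to 8.48 and 8.21. Both fell far less than Ass1, since a correlation follows the shape and not the size of a change. The same measure was 0.433 for Asl, -0.753 for Arg1 and -0.665 for Arg2. For the first and second probes it was -0.78 and 0.374 for Odc1, and -0.694 and -0.519 for Oat. A negative value was thus not particular to the arginases.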

How the data were processed

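Total RNA of whey and serum was amplified, labelled with cyanine 3 and hybridized to 1-colour Agilent whole rat genome arrays. The authors deposited a linear spot intensity made with Feature Extraction 9.5.3.1, with the local background subtracted and no normalization between arrays. The deposited flags are other values of the same software. A quantile normalized table of the series has 10 columns whose names match no sample label, and it was not used. Groups and dam numbers came from the sample titles.

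The processed signals were put on a log2 scale and quantile normalized across the 10 arrays, as the study's methods state, with control spots left out, outlier spots set to missing and spots of a probe averaged. Days were compared with limma 3.58.1 in R 4.3.3 on the 9 whey arrays, two-sided and without a dam term, with Benjamini-Hochberg adjustment over the 16849 probes that were well above background with a signal above 20 on at least 1 whey array, and a threshold of 0.05. The script was tested on simulated data. The number of arrays limits the precision, and p-values measure the spread between 3 dams. The same dams were milked on each day, so dam numbers pair the arrays, and deviations from the day means correlated between arrays of a dam at -0.0184 to 0.218.

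The genes, the wider list and the marker lists were chosen with earlier results of these data known. All probes of the 8 genes are given. From the wider list up to 3 genes per role and comparison were named, by size of change among probes called and well above background on all 6 arrays. Named too were the 5 genes most correlated with Ass1. A probe not well above background on a day has only a bound, set at the higher of its own value and the dimmest probe well above background on each array. RefSeq accessions of 20503 probes were looked up for current names and 16815 matched. Alternatives were scaling to the 75th percentile or to 9 spike-in probes, normexp background correction with an offset of 50, and quantile normalization of the whey arrays alone. Further ones were other filters, the dam or the slide as a block, slide 2 alone, a Tukey-Kramer test and each whey array left out in turn. The Tukey-Kramer p-values had the same Benjamini-Hochberg adjustment. With the slide as a fixed block, the change from d 2 to d 9 rests on slide 2, whose only d 2 array is that of dam 3.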

Additional observations from a re-analysis of the deposited data

How the results depend on the processing

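The fall of Ass1 kept its direction under every alternative run and moved by more than the spread between dams with spike-in scaling and with normexp, which gave -2.76, -3.46 and -0.69. The Arg1 rise to d 9 passed under 17 of 21 alternatives, and the rises to d 16 passed under 10 of 19 for Arg1 and 15 of 19 for Arg2. Probe counts are limited by 3 dams a day, and dim probes such as that of Asl by their distance from background. Where a value changed, the cause was not tested. Alternatives were run for the probes of the 8 genes and for 1 probe of each wider-list gene chosen by the naming rule in a comparison, not for its other probes, Eif5a, P4ha2, Slc25a13 or Ckm. Apart from the replicate block values named here and beside the results, the dam block changed no other call of the probes run.

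Of all probes, 2975, 4808 and 239 were called by d 9, by d 16 and between those days, against 7072, 764 and 159 with spike-in scaling, where 99.0%, 76.8% and 2.52% were higher in place of 63.4%, 56.2% and 39.3%. From d 2 to d 9 the count was 499 with slide as a fixed block, 107 within slide 2 and 1287 by the Tukey-Kramer test, which called 2678 by d 16 and 0 between d 9 and d 16, where 2040 had an unadjusted p under 0.05. From d 9 to d 16 it was 867 with normexp, 133 with no filter, 525 for probes well above background on every whey array, 608 at a minimum signal of 100, 110 with the replicate block and 680 with slide as a random block.

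Of the arginine probes other than Ass1, the 1 called from d 2 to d 9 became 4 with spike-in scaling, 3 with normexp and with either stricter filter, 2 with the replicate block or the random slide block, and 0 with the fixed slide block, within slide 2 and by the Tukey-Kramer test. The 2 called from d 2 to d 16 became 1 with no filter and with the replicate block, and 0 with spike-in scaling and the Tukey-Kramer test. The 0 called from d 9 to d 16 became 1 with normexp and with either stricter filter. The 4 probes over 4-fold higher in whey than in serum became 8 with spike-in scaling and 2 with normexp.

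Of the wider list, the 12 called from d 2 to d 9 became 22 with spike-in scaling, 1 with the fixed slide block, 0 within slide 2 and 6 by the Tukey-Kramer test. The 19 called from d 2 to d 16 became 3 with spike-in scaling and 11 by the Tukey-Kramer test. The 1 called from d 9 to d 16 became 0 with both other scalings, with quantile normalization of the whey arrays alone, with no filter, with the replicate block and by the Tukey-Kramer test, 3 with normexp and on probes above background on every whey array, and 4 at a minimum signal of 100 and with the random slide block.

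With 1 array left out, all probes called ran from 1255 to 2717, 2745 to 4890 and 23 to 264 in the 3 comparisons, arginine probes from 1 to 1, 0 to 2 and 0 to 0, and wider-list probes from 4 to 11, 10 to 20 and 0 to 1. The 2 arginine calls to d 16 became 0 without the d 2 array of dam 2 or the d 16 array of dam 3, and 1 without the d 2 array of dam 1 or the d 16 array of dam 1 or dam 2.

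Directions turned under some settings. With spike-in scaling the log2 changes were 1.32 for Asl and 1.37 for the second Odc1 probe by d 9, 0.33 and 0.30 by d 16, and -0.24 for Arg2 and -0.96 for the first Odc1 probe after d 9. Pycr1 turned to 0.69 by d 9 and Got2 to 0.02 by d 16 on that scale, or -0.83 and -0.57 relative to the median. Asl was at 0.04 by d 9 with normexp, and the first Odc1 probe at -0.12 after d 9 at the 75th percentile. The Arg2 change by d 9 was -0.12 with the fixed slide block and within slide 2. With 1 array left out it ran from -0.12 without the d 9 array of dam 3 to 0.23, and was -0.02 without the d 2 array of dam 2. The changes between d 9 and d 16 then ran from -0.06 to 0.06 for the first Odc1 probe, from -0.29 to 0.01 for the second, from -0.27 to 0.04 for Asl and from -0.16 to 0.06 for the first Oat probe. The turned directions came without the d 9 array of dam 1 or 3 or the d 16 array of dam 3 for the first Odc1 probe, without the d 16 array of dam 2 for the second and for Asl, and without the d 9 array of dam 3 for Oat. Apart from Pycr1 and Got2, no turned value belonged to a probe called in that comparison.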
